A study of Drosophila melanogaster with 2 samples.

Results

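CaMKI, CaMKII, Cam, CanA-14F, CanB and CanB2 are 6 Drosophila genes for calmodulin and for the kinases and the phosphatase that calmodulin switches on. They are 6 of the 13945 protein-coding genes on the chromosome arms, and their binding by the transcription factor Onecut is described here peak by peak. The genes were taken by name, and they were chosen from the signal values and positions of these same peaks, CaMKI for one of the highest peaks of the experiment. The values below are therefore a description, with no test.

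The data are transcription factor ChIP-seq from whole embryos aged 0 to 24 hours, a span with all stages and all tissues of the embryo mixed. The embryos came from a transgenic fly strain, onecut-GFP, that expresses Onecut fused to eGFP, and the fusion protein was pulled down with an antibody against GFP. The 2 libraries are biological replicates of the same strain and form 1 group, so no condition is compared and no embryo without the fusion protein is among the samples; a control alignment entered the peak calling only. What drives the expression of the fusion protein is not given beyond an insertion that targets onecut. Because tissues were not separated, a low peak in many cells and a high peak in few cells cannot be told apart.

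Calmodulin is a small EF-hand protein that changes shape when it binds calcium and then docks onto its target enzymes. Among these are the calcium/calmodulin-dependent kinases CaMKI and CaMKII, of which CaMKII is a major kinase of synapses, and calcineurin, a phosphatase built from a catalytic A subunit and a calcium-binding B subunit. Onecut is a protein with a cut domain and a homeodomain, known in fly embryos mainly from neurons, and proteins of its family bind DNA with the core ATCGAT or ATTGAT.

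Each peak list gives a summit, the position of the highest signal within a peak, and a signal in units that the files do not define, so signals were ranked and compared only within a list. The list built from replicates 1 and 2 jointly, called here the joint list, had 6755 peaks that passed a limit of 0.01 on the irreproducible discovery rate (IDR), a measure of how well a peak keeps its rank between inputs, and 6747 of them lay on the chromosome arms. Replicate 1 alone had 5133 peaks past the same limit out of 31012 ranked peaks, and replicate 2 alone had 6023 out of 38160. The read depth behind the lists is not given in the sources used here. A summit was given to a gene when it lay between 1000 bp upstream of the gene start and the gene end.

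At 5 of the 7 summits of the calcium genes the DNA held a form of the Onecut core within 50 bp, against 38.2% of all summits. The 5 stretches are shown because they hold the cores found at these summits. The highest peak, at the CaMKI promoter, holds a pair of ATTGAT cores, and the 4 weaker peaks shown each hold a single ATCGAT. With 1 peak against 4, no link of core form to height is read from this. The Cam peak holds no core, and the similarly high peaks of gpp and CG30466 hold a single ATCGAT. Each stretch is read 5′ to 3′ on the strand from which its gene is transcribed, from the Release 6 assembly (dm6), and capitals mark the core. ATCAAT is ATTGAT read on the opposite strand.
CaMKI promoter, chr4:446143-446172, plus strand: tgaagaaaATCAATaaATCAATactaaaag
CaMKI intron, chr4:449362-449391, plus strand: gttttttggaaaATCGATagaaattcacaa
CanA-14F intron, chrX:16580384-16580413, minus strand: ctgtgctggggaATCGATaaagcatactta
CanA-14F promoter, chrX:16587161-16587190, minus strand: aatcacgcctctATCGATttcttataagaa
CanB promoter, chrX:5332971-5333000, plus strand: gaatttggaaaaATCGATacgattgagcca

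In the joint list, 4 of the 6 genes had a summit, namely CaMKI, Cam, CanA-14F and CanB, and 31.3% of all protein-coding genes had one. Since the genes were chosen from these peaks, nothing is read from that difference. The pooled list gave 5 of 6 genes against 32.3% of all genes. The thresholded list of replicate 1 gave 4 of 6 against 26.2%, and that of replicate 2 gave 5 of 6 against 28.6%. CaMKII was the added gene in both the pooled list and the list of replicate 2. In the ranked lists, which also hold peaks outside the limit, all 6 genes had a summit in replicate 1, against 59.0% of all genes. All 6 had one in replicate 2, against 60.8%. The ranked lists are not complete, as a CaMKI peak of 39.5 in the pooled ranked list is missing from the ranked joint list. Absence from a ranked list therefore does not show that a peak was absent. CanB2 alone among the 6 passed the limit in none of the lists.

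**Figure D1:**
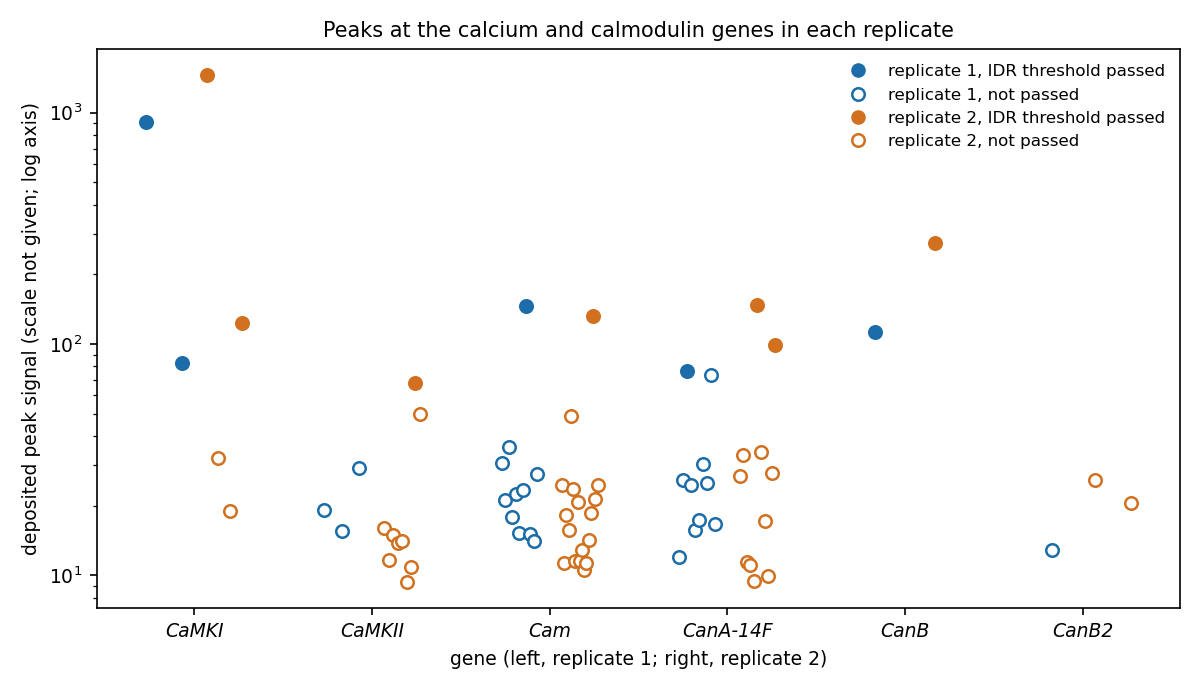
Deposited signal (log axis, scale not given) of every ranked peak with its summit in the window of each of the 6 genes, replicate 1 on the left and replicate 2 on the right of each gene; filled points passed the IDR limit of 0.01 in that replicate. CaMKI stands above the other genes in both replicates, with 909.8 and 1462, and CanB2 has open points only.

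The kinase gene CaMKI (FBgn0016126, chromosome 4, 445504 to 453947, plus strand) carried the dominant peak of the group, at its promoter. In replicate 1 this peak had a signal of 909.8 and ranked 9 of 31012, and in replicate 2 it had 1462 and ranked 5 of 38160. In the joint list it spanned 445952 to 446411, had a signal of 2358 and ranked 8 of 6755, 15.8 times the list's median signal of 149.0. Both replicates thus placed it within the first 10 peaks of their lists. By highest summit, CaMKI was gene 13 of the 4362 genes with one.

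This summit did not lie at the first start of the gene. CaMKI has 5 annotated transcripts and 3 transcription start sites (TSSs), at 0, 589 and 1074 bp from the gene start, and the summit lay 58 bp downstream of the middle one. It fell in the 5′ UTR of 3 transcripts and in intron 1 of another. The summit of replicate 1 lay 5 bp further downstream and that of replicate 2 lay 17 bp further, so they were 12 bp apart, against a median distance of 19 bp between replicate summits over the 6679 joint peaks that overlap a ranked peak of both replicates (middle 50% of peaks, 7 to 41 bp).

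Both ATTGAT cores shown for this promoter lie on the minus strand, centred 3 and 11 bp downstream of the summit. They are thus 8 bp apart and point the same way. At least 1 ATTGAT was found in 19.1% of all 6747 windows that reach 50 bp to either side of a summit, and 2 or more in 1.11%. Pairs on the same strand 8 bp apart, a search chosen after seeing this sequence, were found in 4 windows (0.0593%), of which CaMKI had the highest signal. The gene window holds 9 ATTGAT and 8 ATCGAT matches in all, and 3 of these 17 lie within 50 bp of a summit of this list.

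The second CaMKI site was an intronic peak of ordinary height. It had a signal of 82.8 in replicate 1 and 123.6 in replicate 2, so the promoter peak was 11.0 times as high in replicate 1 and 11.8 times as high in replicate 2. In the joint list it had a signal of 211.6 and ranked 2106 (449290 to 449508), and its summit lay 3228 bp downstream of the first. The summit lay in an intron of all 5 transcripts, 2801 bp from the nearest TSS, and its ATCGAT was centred 2 bp from it. It also lay inside a 515 bp INE-1 transposable element (449256 to 449770), a repeat that is common on chromosome 4. Annotated elements of any kind held 24 of all 6747 summits, 0.356%, and 9 of the 54 on chromosome 4, 16.7%. INE-1 elements held 10 of all summits, 0.148%, and 3 of those on chromosome 4, 5.56%. These 3 include this summit and that of the further CaMKI peak below. How reads from repeated sequence were placed is not given, and its part in this peak was not tested.

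A further CaMKI peak (449360 to 449795) overlapped the second. Its signal was 23.0, rank 6723 of 6755, its summit lay 199 bp from the second in the same INE-1 element, and no core lay near it. In each replicate it overlapped the same peak as the second site and no other, and it was not in the pooled list. Counted without it, an alternative chosen after seeing the data, the 6 genes had 6 summits.

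The height of the CaMKI promoter peak was unusual for its chromosome. Chromosome 4, a small chromosome rich in repeats and heterochromatin, had 54 summits, and 30 of its 80 protein-coding genes had at least 1 (37.5%). The next highest peak there, nearest to Asator, had a signal of 737.2, so that the CaMKI peak was 3.2 times as high. In replicate 1 the values were 909.8 for CaMKI and 279.7 for the next peak, and in replicate 2 they were 1462 and 521.6. On each of the other arms the highest peak was between 1.1 and 1.34 times the second. Those arms had between 1095 and 1628 summits each, against 54 here, and the part of that number in the ratio was not tested. CaMKI was chosen for this height, so the ratio is a description.

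**Figure D2:**
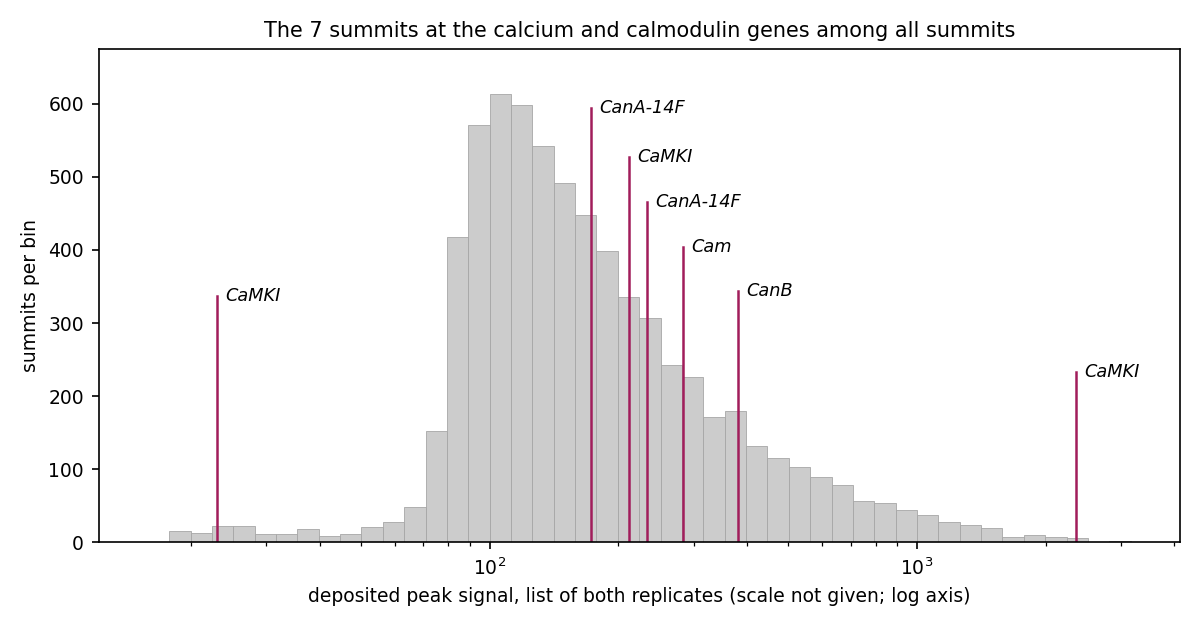
Number of summits per bin of deposited signal in the joint list (log axis, scale not given), with vertical lines at the 7 summits of the calcium and calmodulin genes; line heights only separate the names. The CaMKI promoter peak lies in the far right tail at 2358, 5 others lie between 173 and 382, and the third CaMKI peak lies at 23.0 in the left tail.

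CaMKII (FBgn0264607, chromosome 4, 1035288 to 1053703, minus strand), the second kinase, had only weak peaks. Its highest lay at the promoter. In replicate 1 it was at -9 bp from the TSS, with a signal of 29.1 and an IDR of 0.0768, and in replicate 2 it was at -25 bp, with 68.0 and 0.000671. Replicate 2 alone therefore passed the limit. In the ranked joint list the same peak (1053494 to 1053929) had a signal of 97.8 and an IDR of 0.0251, outside the limit, while the pooled list held it at rank 5636. A further promoter peak in the ranked joint list (1053695 to 1054130), at -210 bp, had a signal of 80.4. Its IDR of 0.018 was lower but also outside the limit. Of the 7 summits of the group inside the limit of the joint list, the one nearest to it had an IDR of 0.000226, at the CanA-14F promoter, well below 0.01.

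Neither core was found within 50 bp of the highest CaMKII summit, and the only one of the 9 motifs searched that was found was GAGAG, 34 bp away. The window of the gene, 19416 bp long, holds 11 ATCGAT and 27 ATTGAT matches. Of each form, 1 lay within 50 bp of a ranked summit of replicate 2, and none lay near one of replicate 1. No other protein-coding gene had the highest promoter peak in its window.

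Cam (FBgn0000253, 2R, 12259398 to 12278809, plus strand), the calmodulin gene itself, was marked in its 3′ UTR and not at its promoters. Its single summit past the limit, at 12274420, was at the identical base in both replicates. It had a signal of 145.5 in replicate 1, rank 1130, and of 132.5 in replicate 2, rank 1837. In the joint list it had a signal of 283.9 and ranked 1388, in a peak 230 bp wide (12274312 to 12274541). The summit lay 15022 bp from the gene start and 9876 bp from the nearest Cam TSS, in the 3′ UTR of 4 of the 5 transcripts. The nearest TSS of any protein-coding gene belonged to CG42700, and the summit lay at -5351 bp from it.

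A summit in a 3′ UTR was rare: 73 of 6747 lay there, 1.08%, and by signal the Cam peak was the ninth of these, above their median of 125.3. None of the 9 motifs lay within 50 bp of it, which was so for 39.0% of all windows. Its window had a GC content of 65.3%, against a median of 41.6% over all windows (middle 50%, 32.7 to 48.5%), and 33 of the 6747 windows, 0.489%, had at least as much. The promoter and intron peaks of CaMKI, the intron peak of CanA-14F and the CanB peak, which also passed the limit in each replicate, all held a core.

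At the Cam promoters the ranked lists held only low peaks, all outside the limit. Cam had 11 ranked summits in replicate 1 and 17 in replicate 2, and beside the 3′ UTR peak the highest was 35.8 in replicate 1 and 48.7 in replicate 2. In replicate 2 the 4 promoter summits had signals between 11.3 and 24.4, and the ranked list of replicate 1 held none within 500 bp of a Cam TSS. The number of ranked peaks at this gene, the most of the 6, thus came from weak peaks spread over 19412 bp.

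**Figure D3:**
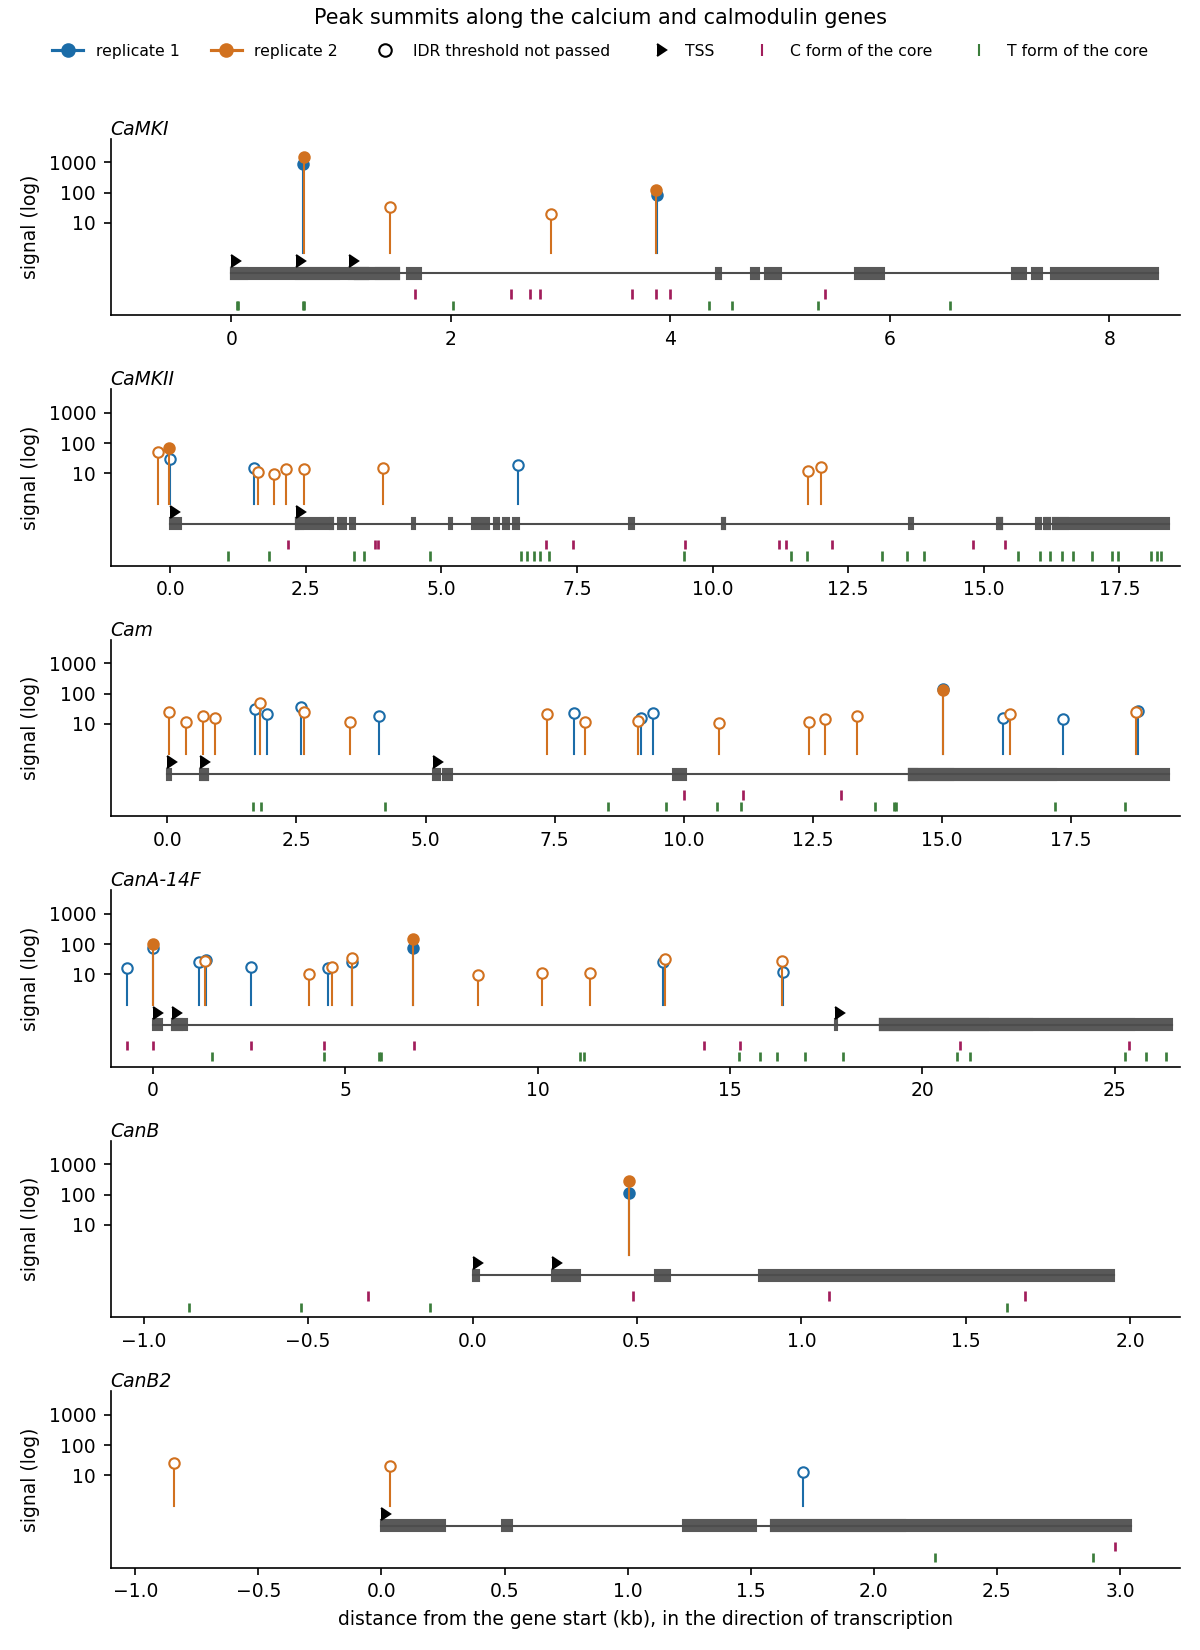
Maps of the 6 genes by distance from the gene start (kb, in the direction of transcription), with exons of all transcripts as boxes, TSSs as arrowheads, ranked peaks of both replicates as stems (height, log signal, scale undefined; filled, IDR limit passed) and matches of the ATCGAT (C) and ATTGAT (T) forms of the core as ticks below. The strong CaMKI peak stands at the middle TSS, the Cam peak stands far into the gene, 15022 bp from its start, within the last exon, and most matches of the core lie away from any filled peak.

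CanA-14F (FBgn0267912, X, 16560684 to 16587172, minus strand) encodes a catalytic A subunit of calcineurin and had 2 summits, 6754 bp apart. The intronic one (16580261 to 16580545) had a signal of 76.1 in replicate 1, rank 2839, and of 147.7 in replicate 2, rank 1550. In the joint list it had 233.3 and ranked 1827. It lay in intron 1 of 3 of the 4 transcripts, 6257 bp from the nearest TSS, with ATCGAT 9 bp from the summit.

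The CanA-14F promoter summit (16586944 to 16587379) lay 10 bp downstream of the TSS, with ATCGAT centred 14 bp from it. Its signal was 73.5 in replicate 1, rank 2988, and 99.1 in replicate 2, rank 2761, and it was 172.7 in the joint list, rank 2772. With an IDR of 0.0135 it fell just outside the limit in replicate 1, and with 0.000213 it passed in replicate 2. Although the 2 peaks of this gene had nearly the same signal in replicate 1, the intronic one was 1.49 times as high in replicate 2. The uncharacterised gene CG13014 starts 700 bp away in the other direction, and the summit also lies in its window. Pp2B-14D, another calcineurin A gene, lies 667 bp from CanA-14F at the other end and had no summit.

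CanB (FBgn0010014, X, 5332499 to 5334449, plus strand) encodes a regulatory B subunit of calcineurin and had the second highest peak of the 6 genes in the joint list and in replicate 2, and the third highest in replicate 1, after CaMKI and Cam. Its only ranked peak had its summit at 5332974 in both replicates. The signal was 112.3 in replicate 1, rank 1654, and 272.9 in replicate 2, rank 609. In the joint list it was 382.0, rank 887 (5332823 to 5333121). The summit lay in intron 1 of both transcripts, 475 bp from the first TSS and 232 bp from the second, with ATCGAT centred 12 bp from it.

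CanB2 (FBgn0015614, 2R, 7786010 to 7789053, plus strand), the other B subunit gene, was the contrast to CanB. Replicate 1 had a single ranked peak in its window, with a signal of 12.8, and replicate 2 had peaks of 25.8 and 20.4. The peak of replicate 1 lay 1712 bp downstream of the gene start, and those of replicate 2 lay at -843 and +34 bp from it. No position was thus shared between these ranked lists. In the ranked joint list the highest peak (7784935 to 7785370) had a signal of 51.6 and an IDR of 0.109, and it lay 86 bp from the TSS of the neighbouring gene cn, a kynurenine hydroxylase of eye pigment synthesis. Both B subunit genes are short, 1951 bp for CanB and 3044 bp for CanB2, and their windows hold 8 and 3 core matches of either form.

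Across the group, 3 of the 7 summits lay at promoters, 3 in introns and 1 in a 3′ UTR. Among all summits 44.2% lay at promoters, 37.2% in introns and 1.08% in 3′ UTRs. The core was within 50 bp of 5 of the 7, against 38.2% of all windows, with ATCGAT at 4 (21.2% of all windows) and ATTGAT at 1 (19.1%). Both strands were searched. ATCGAT reads the same on either strand and is also the inner part of TATCGATA, the site of the factor DREF. That longer site was in 1.79% of all windows and at none of the 7.

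Of the other motifs, only GATAA, bound by GATA factors, was found at these summits. It lay at both CanA-14F sites, and 23.5% of all windows hold it. GAGAG (GAGA factor, 15.3% of all windows), CAGGTAG (Zelda, 0.534%), CAGCTG (an E box, 5.60%), TGACGTCA (a cAMP response element, 0.296%) and GGTCACACT (Motif 1 of core promoters, 0.904%) were at none of the 7. Read outwards from the core, each of the 4 ATCGAT sites held AATCGATA on one strand. This longer form, searched for after these sequences were seen, was in 8.74% of all windows and in 41.2% of those with ATCGAT. A match of letters shows no binding by any of these factors.

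The replicates were close in position at these sites. Of the 7 member peaks, 6 overlapped a thresholded peak of both replicates by at least 1 bp, the exception being the CanA-14F promoter peak. The third CaMKI peak is among these 6 only through the replicate peaks of the second. All 7 overlapped a ranked peak of both, as did 6679 of all 6747 joint peaks. The joint list was built from both replicates, so nothing is read from these overlaps. Apart from the third CaMKI peak, the replicate summits lay within 17 bp of those in the joint list.

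By gene rank on the highest ranked peak, CaMKI was gene 14 in replicate 1 and gene 8 in replicate 2 of 7117 genes with a ranked peak in both. The genes nearest to it in these ranks were gpp (11 and 9), a histone H3 lysine 79 methyltransferase, bchs (18 and 7), a large BEACH domain protein, CG14442 (15 and 14), 14-3-3epsilon (13 and 15), a phosphoserine-binding adaptor, and CG30466 (9 and 12), whose peak is also in the window of Flo1. Their highest peaks had signals between 2167 and 2440 in the joint list, and CaMKI had 2358. Each of them held a core, of the ATCGAT form at all but bchs, which has a single ATTGAT. The 14-3-3epsilon peak also held 2 cores, both ATCGAT, and CaMKI was the only one with 2 ATTGAT. The likeness is one of rank over 2 libraries.

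A wider list of 44 other calcium signalling genes, chosen with earlier results of these data known, had 23 genes with a summit (52.3%), against the 31.3% of all genes. It had 22 in replicate 1 alone and 23 in replicate 2 alone, against 26.2% and 28.6% of all genes. These genes were long, with a median of 27265 bp, against 2166 bp for all protein-coding genes and 4341 bp for those with a summit, and a longer gene offers more room for a summit. The part of length in the count was not tested. The median of their highest summits was 257.6, against 191.5 over all genes with a summit. Of these 23 highest summits, 14 lay in introns and 7 at promoters, 3 of these at the promoter of another gene, and 14 held a core within 50 bp. Among all summits, which are not only the highest of a gene, 37.2% lay in introns, 44.2% at promoters, and 38.2% held a core.

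Among the other kinases of the calmodulin-regulated family 3 of 5 had a summit. These were CASK, a synaptic scaffold protein, with a signal of 347.7 at its promoter, Drak, with 257.6, and Strn-Mlck, a myosin light chain kinase, with 205.9 at a summit nearer to the TSS of CG8366. Strn-Mlck had no summit in the pooled list or in the thresholded list of replicate 2. Among EF-hand calcium sensors 3 of 6 had one: Nca with 325.8, at a summit nearer to the TSS of CG7646, Eip63F-1 with 218.9 and Frq1, a frequenin, with 81.2. Frq1 had no summit in the pooled list or in the thresholded list of either replicate. None of the 3 other genes of calcineurin and its regulator had a summit in the joint list, and 1 of them had one in replicate 2 alone. In the joint list calcineurin was thus marked at CanA-14F and CanB only.

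The highest peaks of the wider list lay at Ca-beta, Pde1c and NFAT. Ca-beta, the cytoplasmic subunit of voltage-gated calcium channels, had a promoter peak of 1375, with signals of 587.9 in replicate 1 and 784.5 in replicate 2, and rank 58 in the joint list. In the same class stj, an alpha2delta subunit, had 776.0 and Ca-alpha1T 190.0, and 3 of 6 genes had a summit. Both calmodulin-regulated enzymes of cyclic nucleotides had one, the phosphodiesterase Pde1c at 987.9 and the adenylyl cyclase rut, known from learning mutants, at 576.9.

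Of 6 calcium-responsive transcription regulators 4 had a summit: NFAT with 966.6, HDAC4 with 604.9, Mef2, a regulator of muscle genes, with 491.0, and 1 more with a lower value. Calcium stores and store-operated entry had 2 of 5, Itpr, the inositol trisphosphate receptor, with 133.3 and Orai with 124.2, at a summit nearer to the TSS of olf186-M. Extrusion had 1 of 2, the sodium/calcium exchanger Calx with 226.1. Phospholipase C had 2 of 3, norpA of phototransduction with 644.1 and Plc21C with 96.3. Channels bound by calmodulin had 3 of 5, slo with 319.4, eag with 150.7 and SK with 107.8. The single gene listed as a neuronal calmodulin-binding protein, igl, had none. No gene of the wider list reached the signal of the CaMKI promoter peak.

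**Figure D4:**
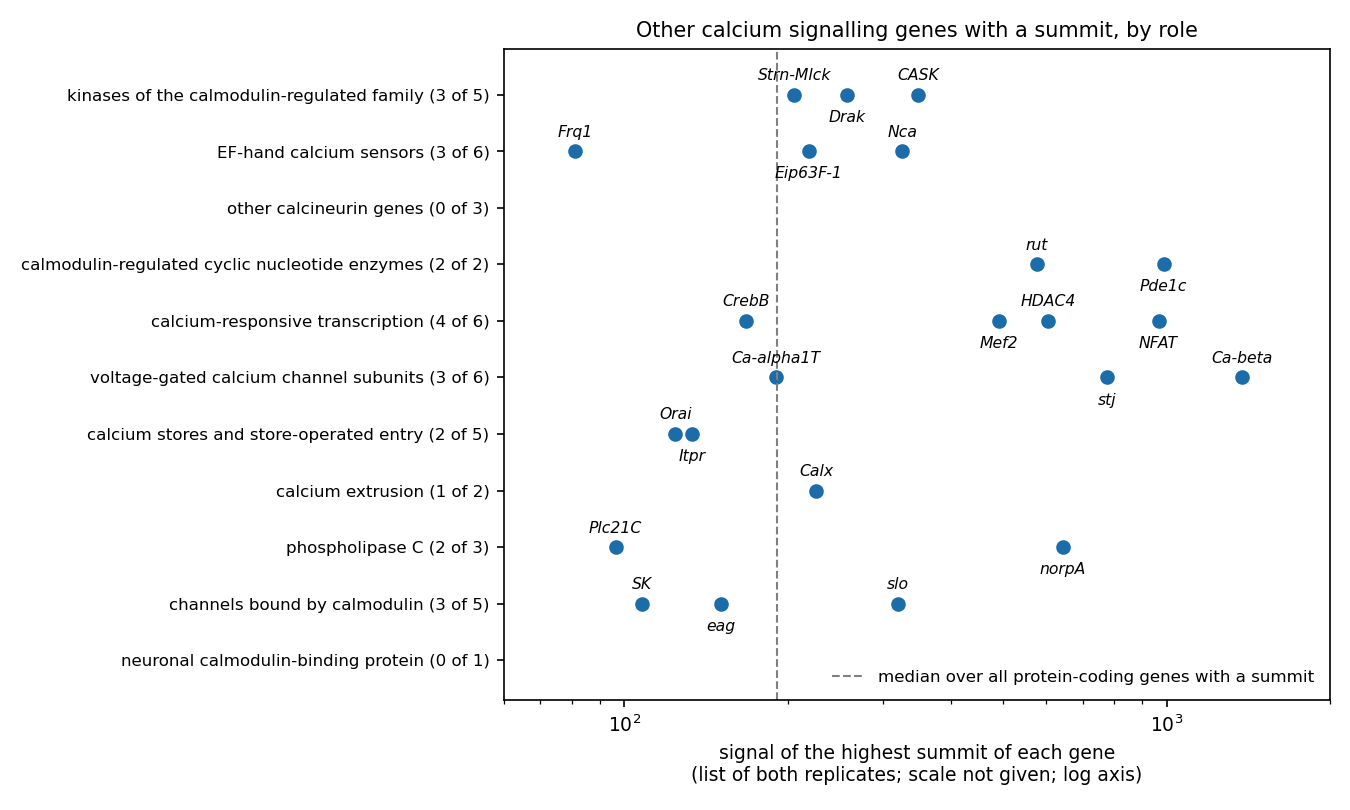
Signal of the highest summit (joint list, log axis, scale not given) of each of the 23 other calcium signalling genes with a summit, by role, with the number of genes with a summit of those listed; the dashed line is the median of the highest summit over all protein-coding genes with one, 191.5. Ca-beta, Pde1c and NFAT stand highest, and the rows of the other calcineurin genes and of igl are empty.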

How the data were processed

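Peaks were read from the deposited lists in dm6 coordinates. The authors called them on each replicate, on both jointly and on pooled data, each time with a control alignment, per the file headers (read-me texts). No aligner, peak caller or read depth is named in the labels or headers. The deposited signal is 1 value per peak, in units that are not defined. The deposited score is the scaled IDR, and the authors' ranked lists give the -log10 of the IDR, whose lowest value in the thresholded joint list of both replicates was 2.00.

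Genes came from Ensembl release 115 and sequence from the Release 6 assembly. Distances count from annotated TSSs, a promoter is 500 bp on either side of one, and motifs were searched up to 50 bp from a summit on both strands. Python 3.11.15, pandas 2.3.3 and numpy 2.4.6 were used, and gene windows and motif searches were tested on simulated data. The members and lists were chosen with earlier results of these data known. Named were all 6 members, up to 3 genes per role with the highest summit, genes sharing or nearest to a member summit, and the 5 genes closest to CaMKI in rank. With 1 group of 2 libraries no test was run.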

Additional observations from a re-analysis of the deposited data

How the results depend on the processing

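With 6 sites and 2 libraries, of unknown read depth, values describe these lists only. Of 43 alternative values, 40 were counted as unchanged, but by a loose standard. With an IDR of at most 0.001, 22.2% of all genes and 19 genes of the wider list had a summit. With the stronger 50% of peaks, 18 genes of the wider list had one. Without replicate 2 the members had 5 summits, and all of these were counted as unchanged. CaMKI ranked 5 to 9 when each replicate was left out in turn, against 8. The share of all genes with a summit was 31.3%. It was 20.1% with the stronger 50% of peaks, which keeps fewer summits, and 17.3% with no upstream sequence, which keeps all summits but shortens the gene windows. The same 4 members still had at least 1 summit under both. With 2000 bp upstream CaMKI gained a summit of signal 109.0, nearest to the TSS of lgs. At least 50% coverage of a peak in both replicates was met by 4 of the 7. No paired analysis was possible because there is 1 group and no test.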
